A study of Caenorhabditis elegans with 2 samples.

Results

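The genes described here are the cytoplasmic ribosomal protein genes of Caenorhabditis elegans, taken by name as every protein-coding gene called rpl- or rps- followed by a number in the Ensembl WBcel235 annotation. There were 78 of them among 19973 protein-coding genes, 47 for the large subunit (rpl) and 31 for the small subunit (rps). The names alone chose them, so no measured value entered the choice, although it was made with earlier results of these data known.

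The measurement was chromatin immunoprecipitation followed by sequencing (ChIP-seq) of RNT-1, the RUNX-type transcription factor of the worm. All animals were of 1 group: hermaphrodite first-stage (L1) larvae of strain OP462, genotype unc-119(tm4063) III; wgIs462, hatched without food after bleaching and collected 6 h after synchronization. The strain stably carries RNT-1 with a GFP-FLAG tag at its carboxyl end, and an antibody against GFP was used for the precipitation. The 2 samples were biological replicates, no second condition was measured, and the control experiment that the labels mention was not analysed here. The genotype lists no deletion of the native rnt-1 gene, and the material was whole larvae, so a weak signal in many cells and a strong one in few cells cannot be told apart.

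Ribosomal proteins are made in equal amounts and assembled with ribosomal RNA into a small subunit, which decodes messenger RNA, and a large subunit, which joins amino acids. Their genes are scattered over the genome, are active in nearly every cell and are transcribed at a high rate in growing larvae. RUNX factors are known to bind short sites of the form TGTGGT or TGCGGT, and in the worm RNT-1 is best known from the dividing seam cells of the epidermis.

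Peaks of tagged RNT-1 lay near almost every ribosomal protein gene and were strong there. A peak here is a region of the authors' reproducibility list (5560 regions that passed the irreproducible discovery rate, IDR, threshold), its summit is the position the authors give as its highest point, and a gene counts as having a peak where a summit lies within 2 kb of one of its annotated starts. By that count 74 of 78 ribosomal protein genes had a peak (94.9%, with a 95% Clopper-Pearson interval, exact and for counting error alone, of 87.4 to 98.6%). Over all protein-coding genes the share was 25.4%. The 1112 strongest peaks of the list reached 54 of the 78 genes (69.2%), against 8.08% of all genes. For 43 of the 78 (55.1%) the gene's own start was the nearest protein-coding start to some summit, against 17.2% of all genes, and for the other 31 genes with a peak a neighbour's start was nearer at every summit. No test goes with these counts, because genes are not replicates and 1 group holds no contrast.

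The large and the small subunit had much the same values. All 31 small-subunit genes had a peak (100%, interval 88.8 to 100%), and 43 of 47 large-subunit genes did (91.5%, interval 79.6 to 97.6%). The 4 without one were rpl-17, rpl-25.1, rpl-37 and rpl-42. The strongest peak of a gene had a median signal of 516 in the large subunit, with a range from 148 to 2889, and 544 in the small subunit, with a range from 76.1 to 1992. Signal is the value the authors' peak caller gave to a region, and the sources used here do not give its scale or the read depth. Over all 5066 genes with a peak the median was 234.7. The 2 subunits shared 3 summits between them, so these values are not fully separate.

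Among the large-subunit genes the highest signals were at rpl-35, rpl-3 and rpl-15. At rpl-35 (WBGene00004449), whose protein lies by the exit of the peptide tunnel, the replicates gave 1461 and 1428 (1444 ± 22.9, SD, n = 2) for a region at chrIII:7854563-7854803. At rpl-3 (WBGene00004414), whose protein reaches towards the peptidyl transferase centre, they gave 1408 and 1391 (1399.7 ± 12.3, SD, n = 2) at chrIII:3867452-3867692. At rpl-15 (WBGene00004427) replicate 1 stood higher, with 1501 against 1278 (1389 ± 158, SD, n = 2) at chrIV:654814-655039. These 3 regions ranked 6, 7 and 8 among the 5560 peaks. The replicate range at rpl-15 enclosed those of the other 2, so its level is not distinguishable from theirs, while the ranges at rpl-35 and rpl-3 did not overlap.

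Other large-subunit genes whose own start was nearest to a strong summit followed at lower levels. The region at rpl-12, which encodes the protein at the base of the stalk, gave 796 in replicate 1 and 702 in replicate 2, that at rpl-24.2, which encodes a large-subunit assembly factor related to the ribosomal protein of rpl-24.1, gave 616 and 554, and that at rpl-7A gave 537 and 569. At rpl-11.2, a gene for a partner of 5S RNA, replicate 2 was the higher, with 548 against 494. All 4 lay below the lowest replicate value at rpl-15 and above the large-subunit medians of 263 in replicate 1 and 237 in replicate 2.

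In the small subunit the strongest peak with the member's own start nearest was at rps-1. Its region at chrIII:4475553-4475756 gave 858 and 835 (846 ± 15.8, SD, n = 2; rps-1 is WBGene00004470). At rps-28, whose protein lies near the exit of the mRNA channel, the replicates gave 643 and 527, at rps-24 613 and 495, and at rps-15 568 and 488. Replicate 1 was higher at these 4 genes, and by most at rps-24.

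Several of the strongest regions near members lay nearer to another gene. Those at rps-19, rpl-20, rps-23 and rps-26, picked after their values were seen, had pooled signals of 1992, 1830.0, 1658 and 1428 with replicates of 1047 and 952, 952 and 900.4, 882 and 793, and 773 and 666. The nearest starts belonged to hsr-9 (165 bp), Y17G9B.5 (171 bp), dpm-3 (252 bp) and tmem-107 (59 bp), each on the other strand. The rps-12 region (1756; replicates 888 and 873) was 121 bp from the start of ska-3 and 172 bp from that of rps-12. Position cannot assign these peaks to 1 gene of the pair.

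**Figure D1:**
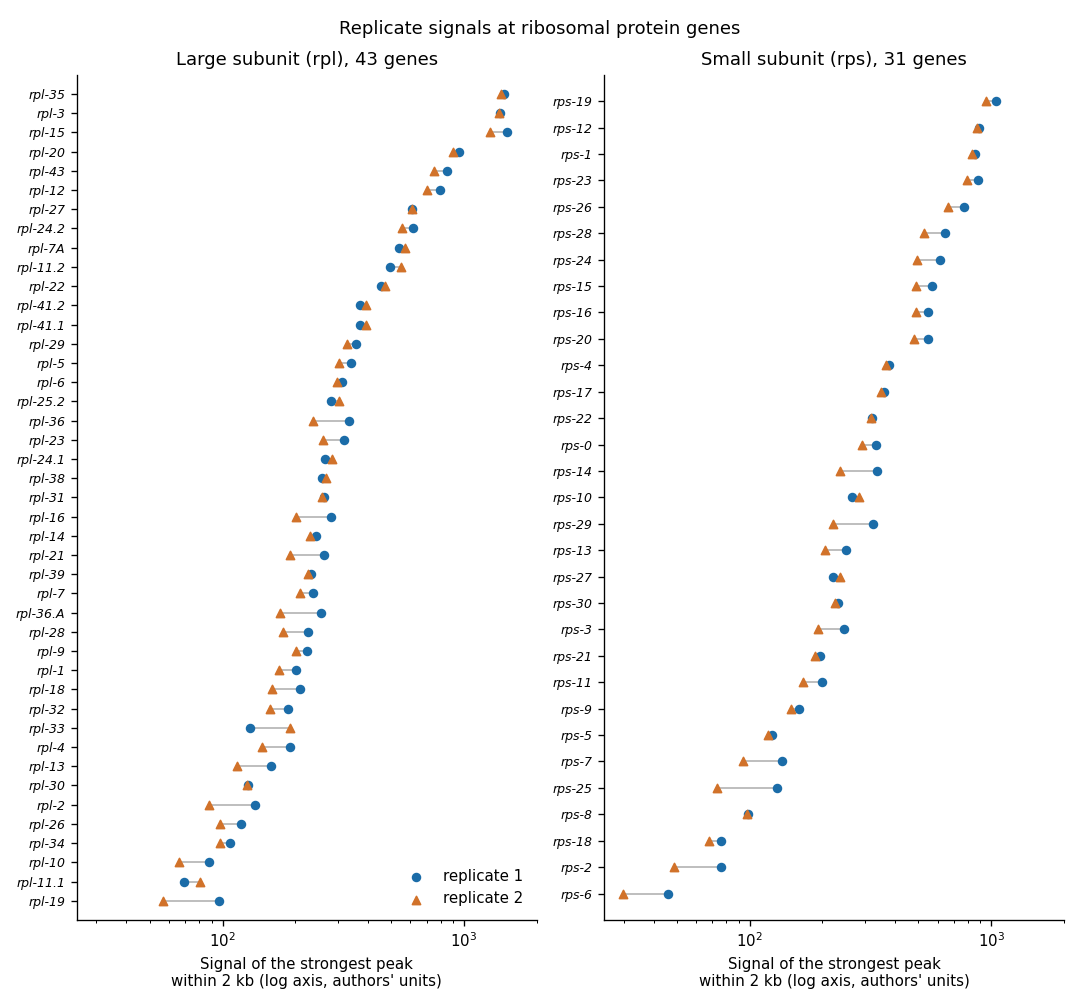
Signal in replicate 1 (circles) and replicate 2 (triangles) of the strongest peak within 2 kb of each of the 43 large-subunit and 31 small-subunit genes that had one, on a log axis and sorted by pooled signal. The replicates lie close together at the top of both panels, from rpl-35 at 1461 and 1428 and rps-19 at 1047 and 952, and furthest apart at weak peaks such as rps-25 at 130.0 and 73.1.

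The 74 genes shared 70 distinct peaks, and all 70 had a matching region in both replicates. The coefficient of variation (SD over mean) had a median of 8.41%, with quartiles of 3.99 and 16.3%. The replicate values were not scaled to each other, so the coefficient also holds the common offset between the replicates given below. The median was 15.6% over the 5282 peaks of the list with a match in both replicates, and 8.53% in its 1112 strongest, to which 50 of the 70 belong. Replicate 1 was higher at 60 of the 70, against a smaller share over the list, 3491 of the 5282 matched peaks. Replicate 2 gave a median of 0.895 times replicate 1, which was also the ratio over all matched peaks (0.895). The largest excess of replicate 2 was at rpl-33, with 130.2 and 190.0. None of the 70 differed more than 2-fold, whereas 423 of the 5282 matched peaks did. Across the 70 peaks, which share their 2 libraries, Pearson's r between the replicates was 0.992 and Spearman's rho 0.976, given as a description. Both replicates held 69 of the 70 among their own 5560 strongest regions, against 76.7% of all peaks. Neither this share, nor the 2-fold count, nor the count with replicate 1 higher is set beside peaks of like signal, and most of the 70 are strong peaks.

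On these unscaled values the least variable regions were those at rpl-27, rps-8 and rpl-30. Replicate 2 was nearly equal to replicate 1 there, and so stood above the common ratio between the replicates. Replicates gave 612 and 610.2 at rpl-27, 98.6 and 97.9 at rps-8 and 127 and 126 at rpl-30. The most variable were at rps-25 (130.0 and 73.1, coefficient of variation 39.6%), rpl-19 (96.2 and 56.6, 36.7%), rps-2 (75.9 and 48.7, 30.8%), rpl-2 (136 and 88.3, 30.2%) and rps-6 (45.8 and 29.8, 30.0%). In these 5 replicate 1 was the higher, and their pooled signals, from 76.1 to 222, were in the lower part of the members' range.

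The weakest peak of a member was at rps-6, which encodes the classical substrate of S6 kinase. Its pooled signal was 76.1, at rank 5293 of 5560, and the summit lay inside the gene, 402 bp downstream of the start. With the 5560 strongest regions of replicate 2 alone it no longer had a peak. Next came rps-2 and rps-18, both at 124.

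The 4 genes without a peak differed in what lay below the threshold. The pooled candidate list goes down to a signal of 26.1, and a gene without a candidate there is not at a measured 0. At rpl-25.1, whose protein binds at the tunnel exit, the strongest candidate within 2 kb had a pooled signal of 59.9 and lay 115 bp downstream of the start, and at rpl-42 it had 55.8 and lay 960 bp downstream. At rpl-37 no pooled candidate lay within 2 kb, and 1 region of replicate 1, with a signal of 17.6, lay 448 bp upstream. Just inside the 2 kb limit were the summits of rps-16 (1749 bp) and rpl-16 (1761 bp). Just outside it, rpl-25.1 was the only one of the 4 with a summit within 4 kb, at 3077 bp and with a signal of 519.

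At rpl-17, whose protein lines the peptide tunnel, the replicate lists and the pooled list went different ways. Replicate 1 had a region 404 bp upstream of the start with a signal of 77.9, at rank 3367, and replicate 2 had one 393 bp upstream with 94.6, at rank 2467. The pooled list holds no region there. Its nearest summit was 537 bp from that of replicate 1, and its strongest candidate within 2 kb of the gene had a signal of 39.8 and lay 133 bp downstream of the start. Among the 5560 strongest regions of each replicate, 4301 were found in both, and 64 of these had no counterpart in the pooled list, the rpl-17 region among them. From the strongest regions of either replicate alone, rpl-17 had a peak.

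Among genes that share a number in their names, signal differed widely in some cases and less in others. At rpl-11.1 the replicates gave 69.1 and 80.7, against 494 and 548 at rpl-11.2. The first had a pooled signal of 150.5 and the second 1014, and the replicate ranges did not overlap. The genes rpl-25.1 and rpl-25.2 encode versions of the same protein; the first had no peak and the second had one with 280.1 and 304. At rpl-24.1 the values were 267 and 283, lower in both replicates than at rpl-24.2. For rpl-7 they were 237 and 209 and for rpl-7A 537 and 569, genes that share a number in name but encode different proteins. The same holds for rpl-36, with 335 and 237, and rpl-36.A, with 256 and 173. Their replicate ranges overlapped, although rpl-36 was the higher in each replicate.

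The tandem genes rpl-41.1 and rpl-41.2, which encode the smallest ribosomal protein, shared their strongest region. It gave 369.6 and 393 in the replicates and lay 274 bp upstream of rpl-41.2 and 828 bp downstream of the start of rpl-41.1. A weaker peak, with 70.0 and 69.3, lay 179 bp upstream of rpl-41.1. Each of these genes had 3 summits within 2 kb, the most of any member. Of the 74 genes, 57 had 1 summit and 17 had more than 1, and the shares over all genes with a peak are not given here.

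Summits sat at a narrow range of distances from the starts. The strongest summit lay a median of 294.5 bp upstream of the annotated start, with quartiles of 245.5 and 379.75 bp. It was upstream at 71 of 74 genes (95.9%), against 80.8% of all genes with a peak. Between 200 and 450 bp upstream, a band chosen after the values were seen, lay 57 of the 74 (77.0%), against 18.7% of the 4992 other genes with a peak. All genes with a peak had a median of 261 bp upstream with quartiles of 60.25 and 891 bp, so the medians were near each other and the spreads were not. Large-subunit summits had a median of 298 bp and small-subunit summits of 284 bp. The summit was intergenic at 69 genes, inside another gene at 3 and inside the gene itself at 2. These shares over all genes with a peak are not given here, so this placement is not shown to be particular to the members. The regions themselves were narrow, with a median width of 184.5 bp against 216 bp for all peaks.

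**Figure D2:**
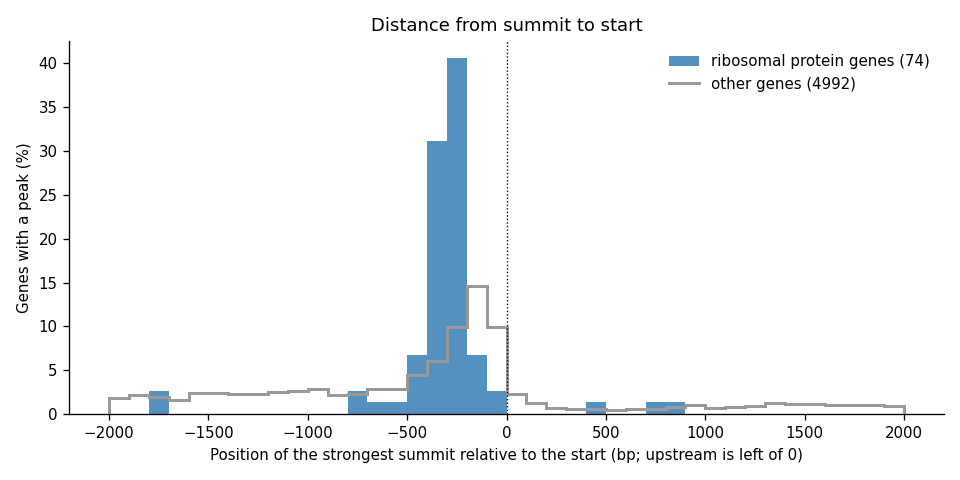
Position of the strongest summit within 2 kb of the start, in bins of 100 bp, for the 74 ribosomal protein genes with a peak (filled) and the 4992 other genes with one (line), as a percentage of each. The filled bars stand highest from 200 to 400 bp upstream, where the 2 bins hold 40.5% and 31.1% of the ribosomal protein genes. The line is highest from 100 to 200 bp upstream, at 14.6%, and is spread more widely over the range.

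Few members departed from that band by much. The farthest summits were those of rpl-16 (1761 bp upstream, replicates 281 and 202), rps-16 (1749 bp upstream, 548 and 489), rpl-41.1 (above), rpl-43 (739 bp upstream, 848 and 748) and rpl-27 (721 bp downstream). Each was nearer to another gene. The rps-16 region was 67 bp from the start of fib-1, the gene of fibrillarin, which methylates ribosomal RNA. The rpl-16 region was 264 bp from lias-1, a lipoate synthase gene, the rpl-43 region 182 bp from Y48B6A.1, and the rpl-27 region 57 bp from egl-30, a G protein gene. The closest summit to a start was that of rpl-12, at 31 bp upstream.

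Many of these peaks lay in promoters shared with a gene on the other strand. A divergent start (the nearest upstream protein-coding start on the opposite strand, within 1 kb) was present for 46 of the 74 genes (62.2%), against 28.6% of all genes with a peak. The share was 55.0% for mitochondrial ribosomal protein genes with a peak and 53.8% for those of ribosome assembly and RNA polymerase I. For elongation factor genes it was 80.0% (4 of 5), and for stalk, fusion and scaffold genes it was lower, at 1 of 5. A high share is thus not particular to the members, but not every one of these groups had it. The summit lay between both starts at 42 of the 46. The strongest peak had a median signal of 525 at the 46 genes and 540 at the 28 without such a neighbour, and a median distance of 286.5 bp and 302.5 bp, so neither value separated them. Between divergent starts the summit was a median of 286.5 bp from the member's start and 240.5 bp from the neighbour's, with a median of 550.5 bp between the starts. The neighbour was the nearer at 27 of these 42 and the member at 15. Over all 1123 genes with a summit between divergent starts, the medians were 204 bp to the gene itself and 203 bp to its neighbour. A summit can be counted there from each side, so near-equal medians are largely built in and give no reference for the members. Of the 42 entries, 6 are likewise pairs of members counted from both sides.

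The neighbours were of many kinds. They included lin-54, a gene of the DREAM complex, at rpl-12, ifet-1, the gene of an eIF4E-binding translational repressor, at rps-1, set-21 at rpl-7A, snt-2, a synaptotagmin gene, at rps-29, and F36A2.9 at rps-15. In 3 cases the neighbour was another member. The region between rps-14 and rpl-36 gave 335 and 237 and lay 257 bp from the first and 406 bp from the second. Between rps-10 and rpl-24.1 it gave 267 and 283, at 370 and 240 bp, and between rps-30 and rpl-39 it gave 232 and 226, at 241 and 258 bp. Each of these 3 pairs joins a small-subunit and a large-subunit gene.

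At 27 members the neighbour's start was the nearer, and the examples here were picked after their values were seen. The rpl-10 region, with 87.5 and 66.0 in the replicates, was 3 bp from the start of ints-11, an Integrator subunit gene; the rpl-10 protein joins the large subunit late in assembly. The rpl-31 region, with 263 and 259, was 28 bp from the start of sac-2, and the rpl-26 region, with 119 and 97.9, was 85 bp from that of cpf-1, a gene of the polyadenylation machinery. At rps-0 the region, with 335 and 292, was 72 bp from the start of rbg-3, and the rps-29 region was 60.0 bp from that of snt-2. Farther from the summit, at rpl-36.A the neighbour was nuo-1, a gene of mitochondrial complex I, at 288 bp, and at rpl-28 it was the mitochondrial ribosomal protein gene mrpl-49, at 165 bp, from a region with 227 and 179. Both were nearer to the summit than the member was.

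At 3 members the strongest summit lay inside another gene. The rpl-30 region was in pab-1, the gene of the poly(A)-binding protein, 11 bp from its start. The rps-18 region, with 76.0 and 68.1, was in sec-61.A, a gene of the protein translocon, and the rpl-24.2 region was in C03D6.1. The first 2 of these genes are the divergent neighbours of rpl-30 and rps-18, so those summits lay past the neighbour's start and not between both.

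**Figure D3:**
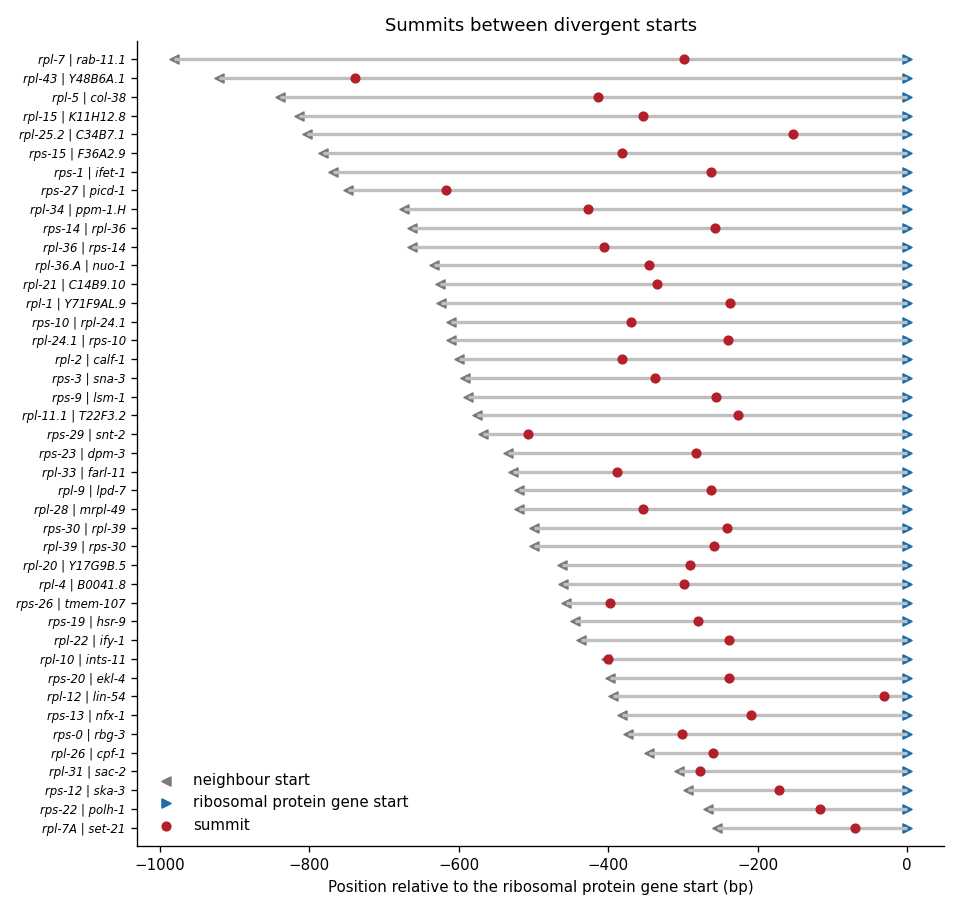
The 42 ribosomal protein genes with a summit between divergent starts, aligned at their own start (right-pointing mark at 0), with the neighbour's start (left-pointing mark) and the strongest summit (filled circle), in bp; row labels give the member and its neighbour. Distances between starts run from 254 bp at rpl-7A to 981 bp at rpl-7, and summits lie between the marks and mostly near 300 bp from the member; the 3 pairs of members appear once for each gene.

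Short sequences recurred under the summits. In windows of 101 bases centred on the summits, all 2080 possible 6-mers were counted on both strands, and 192 occurred in at least 8 of the 70 member windows. The highest ratio of members to all peaks was that of ACCGTA, which reads TACGGT on the other strand, found in 33 of 70 windows (47.1%) against 4.05% of all 5560. AACGTT, the same on both strands, came next with 12 of 70 (17.1%) against 1.58%. GAGACC, which reads GGTCTC on the other strand, ranked lower, as 13 of 192, but was the second most frequent of these 3, in 31 of 70 (44.3%) against 7.12%. These 6-mers were picked from the same windows, so the shares are descriptions with no test, and many of the leading 6-mers overlap each other. At least 1 of the 3 was present in 54 of 70 member windows (77.1%), against 11.5% of all peaks and 13.6% of the strongest 1112 without the members.

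The windows below, from the RefSeq WBcel235 (ce11) genome, show these 6-mers in place, and summits without them, strong and weak. Each is 101 bases around a summit, 5′ to 3′ on the strand of the gene named, with capitals marking the 6-mers of the preceding paragraph in either orientation. The summits of rpl-43, rps-29, rps-16 and rps-12 lay nearer to the start of another gene than to that of the member named. The first 5 hold the leading 6-mer and the next 3 hold it together with the GAGACC form. The window between rps-30 and rpl-39 combines the other two, that of rpl-7A holds AACGTT alone, and those of rpl-35, rps-12 and rpl-11.1 hold none of the 3. The positions are chrIII:3867517-3867617 for rpl-3, chrIV:654879-654979 for rpl-15, chrIII:4475606-4475706 for rps-1, chrII:14154505-14154605 for rpl-43, chrX:2242951-2243051 for rpl-11.2, chrIII:7208048-7208148 for rpl-6, chrIII:793743-793843 for rps-29, chrV:15002240-15002340 for rps-16, chrV:7776287-7776387 for rps-30, chrIV:4390610-4390710 for rpl-7A, chrIII:7854629-7854729 for rpl-35, chrIII:5679076-5679176 for rps-12 and chrV:3586241-3586341 for rpl-11.1. The strand is plus for rpl-3, rps-1, rpl-43, rpl-6, rps-29, rps-30, rpl-35 and rps-12, and minus for the others.
rpl-3: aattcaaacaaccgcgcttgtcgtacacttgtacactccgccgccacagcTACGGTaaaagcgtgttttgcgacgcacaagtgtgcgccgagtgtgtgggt
rpl-15: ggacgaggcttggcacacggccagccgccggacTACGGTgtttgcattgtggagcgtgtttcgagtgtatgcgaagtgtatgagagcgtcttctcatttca
rps-1: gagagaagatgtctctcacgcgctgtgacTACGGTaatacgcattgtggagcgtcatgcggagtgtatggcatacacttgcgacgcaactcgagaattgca
rpl-43: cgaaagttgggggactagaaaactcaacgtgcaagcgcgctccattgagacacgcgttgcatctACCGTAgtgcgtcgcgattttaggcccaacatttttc
rpl-11.2: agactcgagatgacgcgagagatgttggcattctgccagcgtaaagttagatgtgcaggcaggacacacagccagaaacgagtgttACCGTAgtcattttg
rpl-6: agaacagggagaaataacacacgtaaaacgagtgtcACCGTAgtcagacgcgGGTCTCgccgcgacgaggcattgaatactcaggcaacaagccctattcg
rps-29: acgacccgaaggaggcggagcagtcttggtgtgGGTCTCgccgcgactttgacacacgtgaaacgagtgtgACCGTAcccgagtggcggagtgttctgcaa
rps-16: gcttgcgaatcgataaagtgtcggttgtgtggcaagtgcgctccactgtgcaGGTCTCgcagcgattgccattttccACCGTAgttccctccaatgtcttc
rps-30: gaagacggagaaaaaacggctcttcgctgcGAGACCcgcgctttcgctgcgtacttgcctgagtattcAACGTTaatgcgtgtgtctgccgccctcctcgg
rpl-7A: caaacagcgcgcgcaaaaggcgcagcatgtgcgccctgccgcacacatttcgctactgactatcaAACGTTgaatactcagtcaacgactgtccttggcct
rpl-35: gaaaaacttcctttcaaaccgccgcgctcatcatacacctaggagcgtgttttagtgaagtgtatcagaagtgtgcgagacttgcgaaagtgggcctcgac
rps-12: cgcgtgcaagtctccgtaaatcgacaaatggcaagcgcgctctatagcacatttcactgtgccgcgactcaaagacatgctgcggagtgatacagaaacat
rpl-11.1: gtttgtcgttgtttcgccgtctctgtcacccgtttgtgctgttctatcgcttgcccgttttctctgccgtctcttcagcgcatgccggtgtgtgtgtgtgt

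The leading 6-mer lay close to the summits of the members. Of the 70 peaks 38 had it within 200 bp of the summit, at a median distance of 28.0 bp, and 17 of the 38 had it within 25 bp. Among other peaks 495 had it within 200 bp, at a median of 80.5 bp. Since the 6-mer was chosen from windows of 50 bp on each side, some closeness at the members follows from the choice. Along the member's own strand it read ACCGTA at 23 of 74 genes and TACGGT at 11. In the 500 bp upstream of the 5′ end it was present at 36 of 78 members (46.2%), against 13.9% of all protein-coding genes and 15.7% of the 70 mitochondrial ribosomal protein genes. Most of these members' stretches hold the windows from which the 6-mer was picked, so part of this excess follows from the choice too. At the summits the 6-mer was also present in 3 of 5 peaks of the stalk, fusion and scaffold genes and 2 of 5 of the elongation factor genes. It was present in 2 of 13 of the assembly and RNA polymerase I genes (15.4%) and 6 of 39 of the mitochondrial ones (15.4%). Of the 2 assembly peaks, 1 is the fib-1 region, which is also the member peak of rps-16. Large-subunit summits had the 6-mer at 22 of 43 genes and small-subunit summits at 12 of 31.

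**Figure D4:**
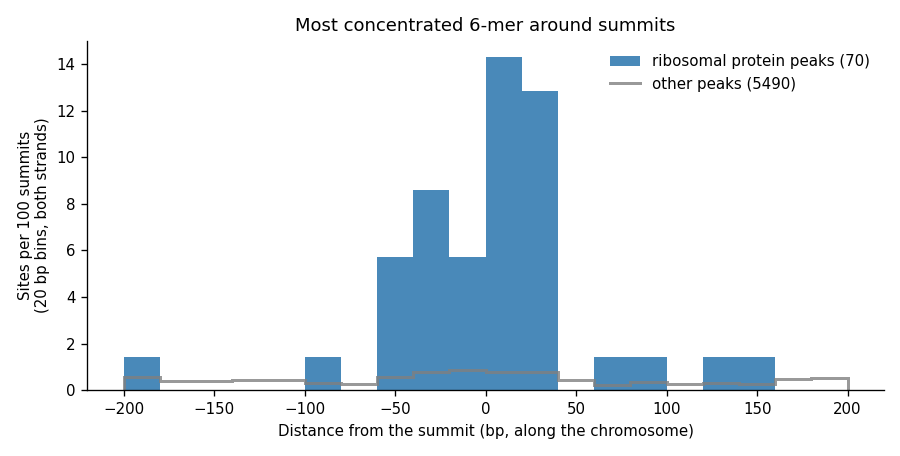
Sites of the most concentrated 6-mer on either strand, per 100 summits in bins of 20 bp, at distances up to 200 bp from the summit, for the 70 ribosomal protein peaks (filled) and the 5490 other peaks (line). The filled bars reach 14.3 sites per 100 summits just beside the summit and fall to 1.43 or 0 beyond 60 bp, while the line stays below 1.

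The strongest member peaks were not those richest in these 6-mers. The 16 member peaks with none of the 3 had a median signal of 808, the 32 with 1 had 553 and the 22 with 2 had 452. Peaks with ACCGTA alone or in combination had a median of 534 (33 peaks) and those without it 452 (37 peaks). In AACGTT and GAGACC the members' promoters (500 bp upstream) stood above all protein-coding promoters, with 38.5% against 14.6% and 43.6% against 12.9%. Most of these promoters hold the summit windows from which the 6-mers were picked. Part of the excess therefore follows from the choice, and these shares are no separate support. The member windows had a GC content of 51.5% at the median, against 46.5% for all peaks and 49.5% for the strongest 1112 without the members; its part in these shares was not tested.

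Letters of the RUNX site had similar shares under member summits and over the whole list. TGTGGT, searched on both strands, was within 50 bp of 3 of 70 summits (4.29%) against 5.76% of all peaks, and TGCGGT of 5 (7.14%) against 4.60%. Either form was present at 8 of 70 (11.4%, interval 5.07 to 21.3%) against 10.1% of all. At rps-19, rps-27, rps-3, rpl-26 and rps-18 it was TGCGGT, and at rps-17, rps-13 and rpl-32 TGTGGT. The E-box CACGTG was present on either strand at 2 of 70 summits (2.86%) against 4.64% of all peaks. The repeat GAGAGA was present on either strand at 11 of 70 summits (15.7%) against 29.8% of all peaks. A window without these letters says nothing of whether the factor binds there.

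The annotated starts had a sequence of their own. In C. elegans many messenger RNAs receive a short leader by trans-splicing, and the annotated 5′ end is then the splice acceptor and not the place where transcription began. The acceptor consensus TTTCAG, read on the gene's strand only, stood directly before a start at 43 of 78 members (55.1%, interval 43.4 to 66.4%), against 16.8% of all protein-coding genes and 38.6% of mitochondrial ribosomal protein genes. The bases AG alone stood there at 72 of 78 (92.3%), against 36.4% and 81.4%. Coding began a median of 8 bp after the annotated 5′ end at members and 15 bp at all genes. Distances above are therefore to annotated starts, and the distance to the sites of initiation was not measured. Among all genes with a peak and AG before a start, 24.6% had their summit in the 200 to 450 bp band, and 12.7% of those without AG did. Among members with a peak, the 42 with TTTCAG before a start had a median distance of 295.5 bp and the 32 without it 291 bp. Split by AG alone, the 69 with it had 298 bp and the 5 without it 70.0 bp. In these splits a gene counts as having the letters where any of its annotated starts does, and 20 of the 78 members have more than 1. The distance is to the start nearest the summit, which can be another one.

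Starts of rpl-3, rpl-15, rps-1 and rps-28 illustrate it, each as 20 bases before and 10 after the start from the RefSeq WBcel235 (ce11) genome, 5′ to 3′ on the gene's strand, with the acceptor in capitals. They lie at chrIII:3867834-3867863 (plus), chrIV:654567-654596 (minus), chrIII:4475898-4475927 (plus) and chrIV:1659671-1659700 (plus).
rpl-3: gtaaaattaatattTTTCAGggtacaacaa
rpl-15: tctaaccttttttcTTTCAGaaaacatggg
rps-1: ttatgtattcctatTTTCAGacacagcttg
rps-28: ataatttcaatttcTTTCAGgtaatcagtc

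Introns of ribosomal protein genes often hold genes of small nucleolar RNAs, which guide the modification of ribosomal RNA. In the annotation 13 members had 19 such genes inside them, and 5 of these members (rpl-7A, rpl-15, rpl-6, rps-12 and rps-29) had more than 1. All 13 had a peak, with a median signal of 544 against 516 for the 61 others with one. None of the 13 strongest summits lay inside the host gene. Only 2 of all 74 members with a peak had it inside their own gene, so this is not particular to the hosts. Replicates gave 311 and 299 at rpl-6, which holds 3, and 323 and 221 at rps-29, which holds 2.

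Other genes of the ribosome and of translation, from lists set up with the study's earlier results known, stood as follows. Stalk, ubiquitin fusion and scaffold genes had a peak at 5 of 6. At ubq-2, which encodes ubiquitin joined to a large-subunit protein, replicates gave 354 and 355, and at ubl-1, which encodes a ubiquitin-like protein joined to a small-subunit one, 287 and 241. The stalk genes rla-0 (71.5 and 59.4) and rla-1 (141 and 109.8) and the scaffold gene rack-1 (89.0 and 78.4) had weaker ones, and the stalk gene rla-2 had none. Elongation factor genes had one at 5 of 6, with a median signal of 979 and a range from 821 to 1019.9, eef-1B.2 being the one without. Genes of ribosome assembly and RNA polymerase I had one at 13 of the 21 found in the annotation, with a median of 376, the highest at rbd-1 (1293) and fib-1 (1039, the region shared with rps-16). The assembly gene lpd-7 shared its region with rpl-9, at 409. Among 70 mitochondrial ribosomal protein genes 40 had a peak (57.1%), with a median of 205 at a median of 171 bp upstream, against 526 and 294.5 bp for the 74 cytoplasmic genes.

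**Figure D5:**
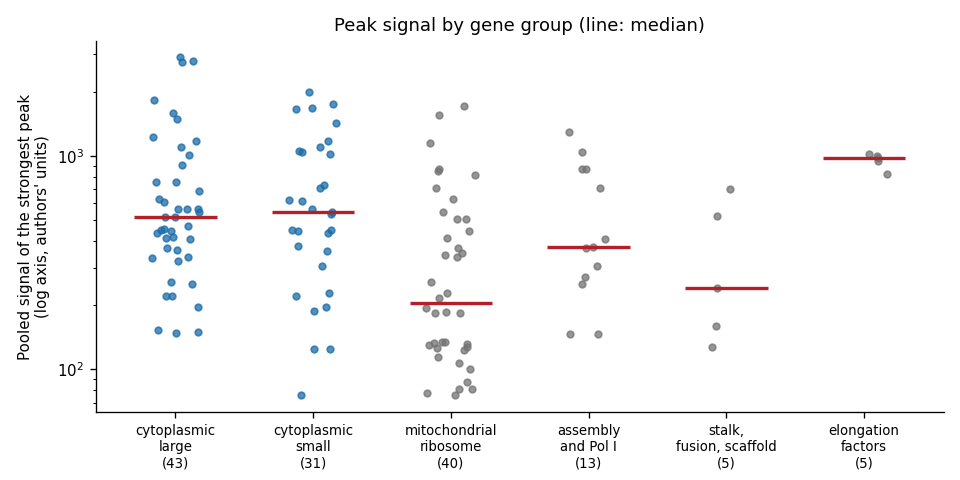
Pooled signal of the strongest peak within 2 kb for each gene with a peak, by group, on a log axis, with the median as a line and the number of genes under each group. Medians are 516 and 544 for the cytoplasmic large and small subunits, 205 for the mitochondrial ribosome and 979 for the 5 elongation factor genes, and the ranges of all groups but the last are wide and overlap.

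The members were spread unevenly over the chromosomes. Chromosome I held 23 members, III 18, IV 17, II 10, V 8 and X 2. Of all protein-coding genes 14.4% were on I, against 29.5% of the members, and 13.7% were on X, against 2.56%. A peak was present at 22, 17, 17, 9, 8 and 1 of the members. The shares of all genes with a peak were 32.3% on I, 33.7% on III, 23.3% on IV, 24.9% on II, 16.98% on V and 28.4% on X. Median signals were 682 on IV, 563 on III, 544 on I, 443 on V and 336 on II, from groups of 8 to 22 genes with overlapping ranges. On X the single member with a peak was rpl-11.2.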

How the data were processed

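Anti-GFP ChIP-seq of 2 biological replicates of 1 group was deposited as peak lists. The 4 ce11 lists (IDR, pooled and replicates 1 and 2) were used, and the ce10 lists were not used here. The signal of each region, its −log10 q-value and its summit are the authors' deposited values; no source used here names the aligner or the caller or gives the depth. The −log10 q-value was used only to describe the list, with a lowest value of 3.07.

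Starts of all transcripts of protein-coding genes came from Ensembl release 115. Each IDR region was matched to the region of each replicate that holds its summit, and the mean, SD and coefficient of variation were taken over the 2 replicates. With 1 group, no test between conditions was possible. Members and lists were chosen with earlier results of these data known. Genes named in full were the 12 strongest with their own start nearest, the 5 largest and 3 smallest coefficients of variation, those without a peak, sets that share a number, pairs that share a summit, the 5 farthest summits, hosts of more than 1 snoRNA gene and neighbours of named genes; others were picked after their values were seen.

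Python 3.11.15, pandas 2.3.3, numpy 2.4.6, scipy 1.17.1 and matplotlib 3.10.9 were used, and the matching was tested on simulated data.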

Additional observations from a re-analysis of the deposited data

How the results depend on the processing

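The count of ribosomal protein genes with a peak was 67 to 75 under the alternatives run, against 74. Of 70 alternative values 9 moved: counts were held to 1.5 times, median signal and distance to the SD between replicates, the replicate ratio and coefficient of variation to the quartiles over the member peaks, and shares to the 95% interval of the reported share. The median signal of 526 became 552 in the 2780 strongest peaks, and 237 and 267 on the scale of a single replicate (without replicate 1 and without replicate 2). The median distance from summit to start, regardless of side, was 300.5 bp, and it became 287 bp for starts within 500 bp, 303.0 bp with the 5′ end of each gene alone, and 306 and 303.0 bp without replicate 1 and without replicate 2. The replicate ratio of 0.895 became 1.01 after each replicate was divided by its median. The AACGTT share of 17.1% became 30.0% with 150 bp on each side, and the count with either RUNX form went from 8 to 14 of 70 summits, within its interval, while the share of all peaks went from 10.1% to 21.0%. With noncoding starts added, the count of genes whose own start was nearest went from 43 to 32 and that of summits between divergent starts from 42 to 38; in the 2780 strongest peaks these were 37 and 40. Leaving out 1 replicate gave 74 to 75 genes with a peak, 43 to 44 with their own start nearest and 42 to 43 summits between divergent starts. No paired analysis was possible because the result comes from no test and only 1 group was measured.

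With 2 replicates an SD rests on 2 values. Depth is unknown, and a gene without a peak is one with no listed summit within 2 kb; it is not shown to be unbound, and absence from the list sets no upper limit on its signal, as the replicate values at rpl-17 show.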
